A study of Danio rerio with 6 samples.

Results

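The tail of wild-type zebrafish siblings at 3 dpf (days post fertilization), with the caudal hematopoietic tissue (CHT), was described from 3 RNA-seq libraries of the 6 in the series. All libraries labelled as siblings were taken, and no other library was used. The labels give their genotype as mettl16+/+, no treatment and the trunk region as tissue, whereas the methods of the study describe tails with the CHT, cut from AB-strain embryos whose heads served for genotyping, with more than 20 tails pooled per library. The other libraries of the series come from mettl16-/- embryos and were not compared here. With 1 group there is no contrast to test, so each value is given for replicates 1, 2 and 3, and "higher" or "lower" describes these libraries only. Neither the labels nor the methods say whether the replicates came from separate clutches, so their spread may be in part technical.

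The CHT is a plexus of venous sinusoids in the ventral tail where blood stem and progenitor cells settle and divide, and it is often likened to the fetal liver of mammals. Around it lie the myotomes of the trunk and tail muscle, the notochord, the spinal cord, the bilayered epidermis and the fin fold. Red cells and plasma also pass through it, and the yolk extension and the hind part of the gut can lie within a cut made in front of it. A bulk library adds up all of these, and fewer cells of a type and less RNA per cell cannot be told apart.

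The libraries held 16615515 to 18541402 counts on 26375 identifiers, of which 16153 reached 1 CPM (counts per 1000000 counts of the library) in all 3 libraries. CPM is the share of a library's counts taken by a gene, and no gene length entered it, so a long transcript takes more counts than a short one at the same number of molecules. Thus ranks and shares below order genes by counts and not by molecules. Where 3 counts are used as the limit of detection, they correspond to 0.162 to 0.181 CPM and cover counting error only. Genes are named as in the table of gene names used, in which 11593 identifiers carry the capital-letter name of the human counterpart, and the identifier is added where several share a name. The gene that is mutated in the other group, mettl16, which encodes an RNA methyltransferase, took 6.14, 6.47 and 7.04 CPM in replicates 1, 2 and 3.

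Contractile and metabolic genes of fast muscle led the tail transcriptome. The 30 named genes with the highest mean CPM took together 31.6% of the counts. Of these, 16 belonged to the skeletal muscle list, 5 to the epidermis list, 2 to the connective tissue list and 2 to the apolipoproteins, and MT-CO1, a mitochondrially encoded subunit of cytochrome oxidase, stood at rank 16. Translation factors (eef1a1l1 and eef2b) and the cytoplasmic actins actb1 and actb2 filled the other places, and none of the 30 genes took fewer than 4040 CPM on average. The first place was held by actc1b, a muscle alpha-actin, with 64122, 48878 and 57742 CPM in replicates 1, 2 and 3. It was followed by myhz1.1, a fast myosin heavy chain, with 36025, 32483 and 31875 CPM, and by atp2a1, the calcium pump of the sarcoplasmic reticulum, with 22674, 21384 and 22084 CPM. The spread of a gene among the libraries is given as the ratio of its highest to its lowest CPM after TMM scaling (scaling factors of the trimmed mean of M values). Over all 14104 genes with a mean of at least 50 counts, 20% reached a ratio of 1.5. This share fell with depth, from 45.2% at a mean of 50 to 100 counts to 5.73% at 10000 counts or more. The shares of the lists below are not matched for depth. Because all lists were made with earlier results of these data known, their differences from the share of all genes cannot be weighed. Of the 30 leading genes only cyt1l reached a ratio of 1.5, at 1.58, and their median ratio was 1.19.

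**Figure D1:**
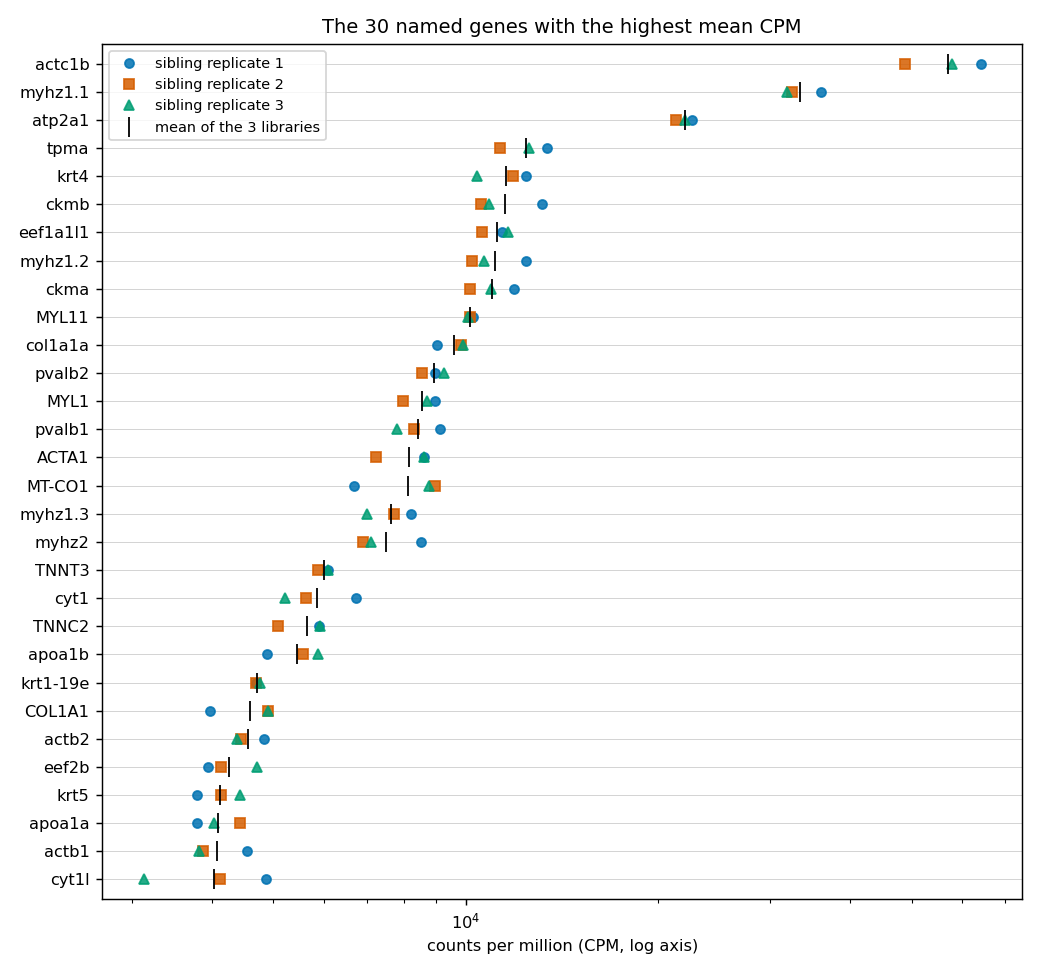
CPM (log axis) of the 30 named genes with the highest mean CPM in each of the 3 sibling libraries, with the mean of the libraries as a vertical tick. The muscle actin gene actc1b stands first with 48878 to 64122 CPM, and for nearly all genes the libraries lie within 1.5-fold of each other.

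Genes of 19 lists of tissue and cell type markers took together 42.9%, 40.4% and 40.8% of the counts in replicates 1, 2 and 3. Skeletal muscle took the largest share among them, 27.6% ± 1.92 (SD, n = 3), ahead of epidermis with 3.80% ± 0.247 and of fin fold and connective tissue with 3.06% ± 0.137. The yolk layer and apolipoproteins followed with 2.09% ± 0.183, the liver list with 1.53% ± 0.196, notochord and cartilage with 1.03% ± 0.201 and erythroid genes with 0.773% ± 0.127. All remaining lists stayed below 1% of the counts. The shares depend on which genes a list holds and on their lengths, so they are not proportions of cells. Cytoplasmic ribosomal protein genes, which belong to no tissue list, took 6.29%, 5.68% and 5.997% of the counts, and the 13 mitochondrially encoded genes took 2.02%, 2.74% and 2.52%.

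**Figure D2:**
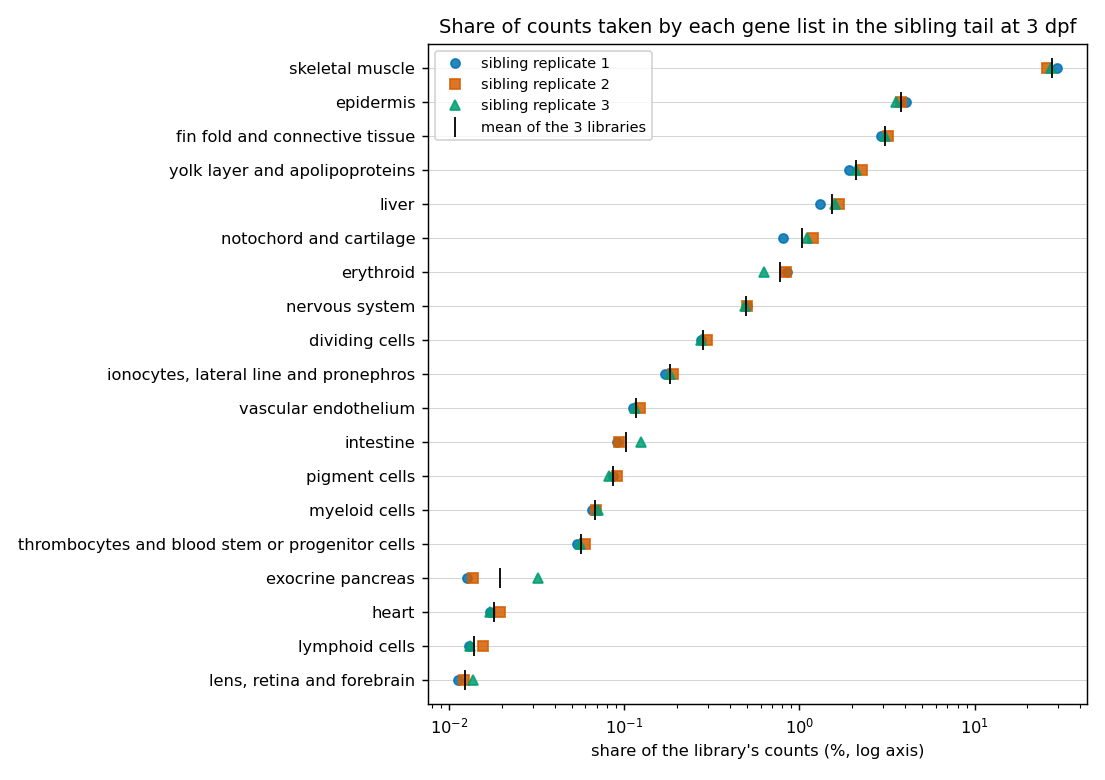
Share of the counts (%, log axis) taken by each of the 19 gene lists in the 3 sibling libraries, with the mean as a vertical tick. Muscle lies at 25.9% to 29.7%, the erythroid list at 0.627% to 0.852%, the vascular endothelium at 0.112% to 0.123% and the list for lens, retina and forebrain at 0.0112% to 0.0136%.

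Skeletal muscle genes took 29.7%, 25.9% and 27.3% of the counts. Of the 136 identifiers in the list, 128 reached 1 CPM in all 3 libraries. The fast myosin heavy chain genes took together 65376, 57529 and 56914 CPM, and the slow myosin heavy chain genes smyhc1 and smyhc2, which mark the superficial slow fibres, took 1994, 1945 and 1859 CPM. Fast exceeded slow heavy chain counts 31.0 ± 1.64-fold (SD, n = 3), in a comparison of genes of similar product but without a length correction. Parvalbumins, the calcium buffers that speed the relaxation of fast fibres, took 18718, 17491 and 17668 CPM. Creatine kinase is encoded by ckma, with 11911, 10163 and 10954 CPM, and by ckmb, with 13180, 10572 and 10867 CPM. One identifier named MYL11 (ENSDARG00000053254), a fast regulatory light chain, was nearly level among the libraries with 10262, 10163 and 10081 CPM.

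The muscle list was highest in replicate 1 and lowest in replicate 2. Among its 128 members with a mean of at least 50 counts, 75 were highest in replicate 1 and 68 were lowest in replicate 2. Of all 2824 genes past a ratio of 1.5, 1244 were highest in replicate 1 and 840 were lowest in replicate 2. For genes of any ratio such counts are not given here, so those of this and later lists have no background. A ratio of 1.5 was reached by 18 of the 128 muscle members (14.1%, against 20% of all genes, not matched for depth). Actin genes differed in the same way, since actc1b and the identifiers named ACTA1 took together 73919, 57073 and 67334 CPM. The paralog actc1c, which was in no list, was low in replicate 2 only, with 9106, 2557 and 9367 counts. Its sequence may share reads with actc1b, and the handling of such reads is not given in the sources used here. Single members were uneven. The obscurin gene obscnb took 23.5, 11.8 and 9.15 CPM, and MYOM1 (ENSDARG00000104836), which encodes the M-band protein myomesin, took 155, 78.3 and 73.1 CPM, each highest in replicate 1. Another identifier named MYOM1 (ENSDARG00000061249) took 778, 727 and 695 CPM and varied by a ratio of 1.14. The junctophilin gene JPH1 (ENSDARG00000058603) had the largest ratio of the list, 5.26, on 172, 38 and 51 counts.

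The keratin gene krt4 took the most counts of any gene outside the muscle list. Genes of the epidermis list together took 4.04%, 3.82% and 3.54% of the counts, and 69 of its 76 identifiers reached 1 CPM in all 3 libraries. A marker of the superficial layer, krt4 took 12425, 11878 and 10408 CPM. The keratins cyt1 and cyt1l took 6743, 5617 and 5208 CPM and 4862, 4126 and 3132 CPM, and both were lowest in replicate 3. By contrast, krt1-19e, a keratin of basal cells, took 4692, 4692 and 4765 CPM, and krt5 took 3801, 4144 and 4429 CPM. The transcription factor gene TP63, which specifies basal keratinocytes, took 61.7, 70.3 and 48.0 CPM, at rank 1941. The hemidesmosome collagen gene col17a1a took 499, 509 and 461 CPM.

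Within the epidermis list, 15 of 67 members with a mean of at least 50 counts reached a ratio of 1.5. This share, 22.4%, was close to the 20% of all genes, but the list was not matched for depth. Of all genes with a mean of 500 to 2000 counts, 7.21% reached that ratio. Of the 67 members, 34 were lowest in replicate 3. The adhesion molecule gene epcam took 219, 145 and 79.3 CPM, a ratio of 2.81. The gene ponzr3, of the plac8-onzin family, was counted 320, 149 and 38 times, and ponzr4 of the same family, which was in no list, 578, 311 and 78 times. For epcam, ponzr3 and ponzr4 alike replicate 1 was highest and replicate 3 lowest, while JUP (ENSDARG00000070787), which encodes the junction protein plakoglobin, stayed at 306, 314 and 302 CPM.

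Collagen I genes led the fin fold and connective tissue list, which took 2.91%, 3.18% and 3.09% of the counts. The gene col1a1a took 9022, 9850 and 9915 CPM, COL1A1 (ENSDARG00000035809) 3970, 4899 and 4901 CPM, and COL1A2 3597, 4084 and 4037 CPM, so all chains of collagen I were lowest in replicate 1. The actinodin genes and1 and and2 encode proteins of the actinotrichia, the stiff fibres of the larval fin fold. They took 1170, 1214 and 1096 CPM and 1556, 1689 and 1522 CPM, with ratios of 1.09 and 1.06. Periostin (postnb) and osteonectin (SPARC), matrix proteins bound to collagen, took 1602 ± 89.1 and 1308 ± 55.6 CPM (SD, n = 3). The defining marker FBN2, a fibrillin gene, was low with 2.48, 3.56 and 4.03 CPM. In the list, 7 of 67 members (10.4%, against 20% of all genes) reached a ratio of 1.5. The list was not matched for depth, and of all genes with a mean of 500 to 2000 counts 7.21% reached it. SERPINH1 (ENSDARG00000019949), which encodes the collagen chaperone Hsp47, was the most uneven with 103, 44.7 and 31.9 CPM. It was highest in replicate 1, where the collagen I genes were lowest. The other identifier named SERPINH1 (ENSDARG00000075954) took 38.9, 38.5 and 28.7 CPM, nearly level in replicates 1 and 2.

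Notochord and cartilage genes were lower in replicate 1 than in the other libraries, with 0.807%, 1.19% and 1.11% of the counts. Of 42 members with a mean of at least 50 counts, 24 were lowest in replicate 1 and 11 were highest there. A ratio of 1.5 was reached by 16 of the 42 (38.1%, against 20% of all genes). Collagen II, the main fibril of cartilage and notochord sheath, is encoded by identifiers named COL2A1. One (ENSDARG00000069093) took 2309, 3796 and 3581 CPM, and the other (ENSDARG00000011407) 930, 1206 and 1115 CPM. Collagen IX decorates these fibrils, and its genes were all lowest in replicate 1. COL9A1 (ENSDARG00000073699), a defining marker, differed least of them. It took 136, 168 and 182 CPM, a ratio of 1.32, with its highest value in replicate 3. The counts of col9a1b were 5610, 17771 and 13504, those of COL9A2 were 6754, 15109 and 12842, and those of col9a3 were 5177, 10667 and 9311, with ratios of 2.72, 1.92 and 1.80. The cartilage genes epyc (epiphycan) and cnmd (chondromodulin) showed the same order, with 151, 252 and 228 CPM and 119, 204 and 184 CPM. The defining markers col8a1a and loxl5b pointed the same way, at 66.8, 105 and 106 CPM and 2.54, 4.69 and 6.74 CPM. The gene matn4 (a matrilin) was not part of this, with 611, 619 and 510 CPM. Nor was col11a1b, a collagen XI gene, with 312, 277 and 232 CPM.

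Globin genes made up most of the blood signal. The erythroid, myeloid, lymphoid and thrombocyte or progenitor lists took together 0.984%, 0.985% and 0.767% of the counts, and erythroid genes provided 84.8% of this. The erythroid list itself took 0.852%, 0.841% and 0.627%. Among the alpha-globins, hbae3 took 2125, 1877 and 1519 CPM, hbae1.2 took 1342, 1452 and 908 CPM, and hbae1.3 took 606, 544 and 452 CPM. These genes were lowest in replicate 3, and so was the beta-globin gene hbbe3, with 337, 375 and 146 counts. The adult alpha-globin genes hbaa1 and hbaa2 were counted 0, 7 and 2 times in all, against 70000, 72708 and 49386 counts of the embryonic alpha-globins. Of 7 identifiers that share the human beta-globin name HBE1, the leading one (ENSDARG00000113599) took 2376, 2320 and 1478 CPM. The shared name does not tell embryonic from adult copies, and ENSDARG00000097238, for example, was counted 0, 3 and 1 times. Alpha-globin and beta-globin counts were close, at a ratio of 1.103 ± 0.049 (SD, n = 3) without a length correction.

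Some erythroid genes outside the globins differed less among the libraries than the leading globins, and others did not. The gene alas2, which encodes the first enzyme of heme synthesis in red cells, took 92.3, 88.5 and 79.8 CPM. RHAG, a membrane channel of the red cell, took 194, 221 and 210 CPM, and SPTB, beta-spectrin of its skeleton, took 98.4, 78.8 and 74.1 CPM. An identifier named ANK1 (ENSDARG00000074777), for the ankyrin that anchors spectrin, differed more with 122, 70 and 65 counts. So did uros, a gene of heme synthesis, with 169, 325 and 264 counts. In the list, 11 of 32 members with a mean of at least 50 counts reached a ratio of 1.5 (34.4%, against 20% of all genes). Of the 32, 18 were lowest in replicate 3. The globin gene hbae1.1 went the other way, with 889, 868 and 1516 counts, highest in replicate 3. An identifier named HBE1 (ENSDARG00000087390) was nearly level, with 542, 613 and 543 CPM, a ratio of 1.08. Since the globin genes are near-identical copies, reads could be divided among them differently, and the value of a single copy is uncertain. The transcription factors of erythropoiesis were near the limit of what these libraries count well, with 3.24, 2.21 and 1.87 CPM for gata1a and 1.65, 2.91 and 2.17 CPM for klf1.

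The neutrophil markers lyz and mpx were level among the libraries, but other members of the myeloid list were not. The myeloid list took 0.0653%, 0.0689% and 0.0707% of the counts, with 44 of 65 identifiers at 1 CPM or more in all 3 libraries. Its leading members were not defining markers but LGMN, with 92.2, 92.1 and 110 CPM, and CEBPA, with 63.8, 56.0 and 67.3 CPM. Whether their counts came from myeloid cells was not tested. The lysozyme gene lyz took 33.2, 33.6 and 33.9 CPM. The identifier listed as EPX (ENSDARG00000019521), which was taken as the myeloperoxidase gene mpx, took 31.9, 30.7 and 29.4 CPM, and npsn, a metalloproteinase of neutrophils, took 15.4, 15.0 and 19.02 CPM. Together, 4 neutrophil genes (lyz, EPX, npsn and CSF3R) took 80.9, 79.4 and 82.3 CPM. The 6 macrophage identifiers, named MPEG1, marco, csf1ra and IRF8, took 26.8, 26.9 and 25.8 CPM. Their ratio was 3.05 ± 0.121 (SD, n = 3), without a length correction. It depends on the members chosen, because the macrophage sum left out the identifiers of the macrophage gene MFAP4 in the same list. The leading one (ENSDARG00000088745) had 158, 139 and 136 counts, and a ratio with them was not computed. The macrophage receptor gene csf1ra, which also acts in pigment cells, took 4.84, 1.94 and 2.17 CPM. Of 33 members with a mean of at least 50 counts, 13 reached a ratio of 1.5 (39.4%, against 20% of all genes). These shares were not matched for depth, and 45.2% of all genes with a mean of 50 to 100 counts reached it. Among the 13 was the protease gene MMP9, which neutrophils express, with 205, 391 and 261 counts. The largest ratio, 2.92, was that of cpa5, a mast cell carboxypeptidase in zebrafish, with 168, 233 and 489 counts and its highest value in replicate 3. In the exocrine pancreas list the carboxypeptidase gene cpb1 had the same order, with 181, 240 and 449 counts. Whether the genes share reads was not tested.

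Genes of blood stem and progenitor cells, the population for which the CHT is studied, were counted at low levels in the whole tail. The transcription factor gene MYB, the usual marker of these cells in the CHT, took 16.7, 16.2 and 18.7 CPM on 283, 301 and 311 counts. RUNX1, which drives their emergence from the aorta, was counted 24, 6 and 9 times, and itga2b, the CD41 gene of thrombocytes and early progenitors, 8, 7 and 10 times. LMO2, a partner in the same transcription factor complex as TAL1, took 10.4, 11.8 and 10.7 CPM. The list of thrombocytes and blood stem or progenitor cells took 0.0538%, 0.0597% and 0.0561% of the counts, but its leading members MEIS1, with 212, 253 and 235 CPM, and THBS1 (ENSDARG00000010785), with 201, 214 and 194 CPM, are also expressed in other tissues. The lymphoid list took 0.0130%, 0.0155% and 0.0132%, and only 9 of its 32 identifiers reached 1 CPM in all 3 libraries. Its leading genes TOX, with 59.4, 76.4 and 65.7 CPM, and GATA3, with 28.8, 33.1 and 31.4 CPM, act outside lymphocytes too. The defining markers were close to nothing. The recombinase gene RAG1 was counted 5, 11 and 8 times, the T-cell kinase gene lck 6, 0 and 2 times, and IKZF1 45, 32 and 22 times.

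A list of ligands and receptors through which a niche acts on blood cells was added after other values had been seen. Of its 21 identifiers, 10 reached 1 CPM in all 3 libraries, against 16153 of all 26375 identifiers. The identifier named CXCL12 and cxcl12b encode the chemokine that holds progenitors in place, and took 34.2, 42.1 and 33.5 CPM and 15.2, 17.4 and 11.7 CPM. Its receptor is encoded by identifiers named CXCR4, of which the leading one (ENSDARG00000057633) took 5.49, 6.20 and 7.58 CPM. Kit ligand, a stem cell factor, was represented by kitlga with 16.4, 14.7 and 16.2 CPM, and its receptor KIT was counted 24, 18 and 20 times. The macrophage growth factor genes csf1a, csf1b and il34 took 3.10, 4.30 and 2.78 CPM on average. Cytokines that act through the circulation were nearly undetected, with 7, 8 and 7 counts for the erythropoietin gene epoa and 0 counts in every library for the thrombopoietin gene thpo, which allows up to 0.177, 0.162 and 0.181 CPM.

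The summed share of endothelial genes hardly differed among the libraries. The vascular list took 0.112%, 0.123% and 0.116% of the counts, and 60 of its 64 identifiers reached 1 CPM in all 3 libraries. The receptor gene kdrl, expressed throughout the endothelium, took 41.9, 43.3 and 38.9 CPM. The scavenger receptor gene stab2, a marker of the sinusoids and veins, took 38.0, 30.5 and 27.1 CPM, and cdh5, the cadherin of endothelial junctions, took 19.2, 28.5 and 20.5 CPM. The water channel gene AQP1 (ENSDARG00000023713), also a gene of red cells, was the highest member with 110, 132 and 136 CPM, ahead of the diaphragm gene plvapb with 61.6, 77.6 and 76.2 CPM. Arterial genes (dll4, EFNB2 and HEY2) took together 51.9, 60.4 and 53.3 CPM. The largest part came from 1 identifier named EFNB2 (ENSDARG00000020164), with 31.7, 36.0 and 31.8 CPM. Whether its counts came from arteries was not tested. The venous and sinusoidal genes (stab1, stab2, lyve1b, MRC1, FLT4 and dab2) took 144, 152 and 133 CPM, so that arterial counts came to 0.386 ± 0.0219 (SD, n = 3) of them, without a length correction. In the list, 11 of 57 members with a mean of at least 50 counts reached a ratio of 1.5. This share was 19.3%, against 20% of all genes, not matched for depth. The largest ratio was that of PROX1, a lymphatic transcription factor that slow muscle expresses too, with 171, 102 and 91 counts.

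Liver genes were present in every tail library. The liver list took 1.31%, 1.68% and 1.59% of the counts, and 73 of its 88 identifiers reached 1 CPM in all 3 libraries. Its defining markers differed widely in counts. The plasma protein genes tfa (transferrin), with 1160, 1631 and 1726 CPM, and FGB (fibrinogen beta), with 247, 292 and 238 CPM, took many counts, whereas fabp10a, the fatty acid binding protein of hepatocytes, took only 8.61, 6.26 and 18.0 CPM. The leading members were BHMT, an enzyme of methionine recycling, with 3396, 4221 and 3442 CPM, and apoa2 with 2848, 3443 and 3180 CPM. Many genes of this list are also expressed by the yolk syncytial layer, so the list does not mark hepatocytes alone. Replicate 1 was lowest for 44 of 71 members with a mean of at least 50 counts. Of the 71 members, 22 reached a ratio of 1.5 (31.0%, against 20% of all genes). The largest ratio, 6.96, was that of CYP1A1.

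Apolipoprotein genes, which the yolk layer uses to export lipid, took more counts than the liver list. Their own list took 1.91%, 2.27% and 2.09% of the counts. The genes apoa1b and apoa1a, for apolipoprotein A-I, took 4886, 5565 and 5869 CPM and 3801, 4429 and 4041 CPM, and apobb.1, for the large apolipoprotein B, took 3519, 4636 and 3584 CPM. The paralog apobb.2 was more uneven with 27.1, 51.3 and 16.0 CPM, highest in replicate 2. Retinol binding protein RBP4 took 989, 1191 and 1450 CPM. Vitellogenin, the yolk precursor made in adult females, was represented by vtg7 with 127, 82 and 216 counts. Of 23 members with a mean of at least 50 counts, 4 reached a ratio of 1.5 (17.4%, against 20% of all genes). The list was not matched for depth, and of all genes with a mean of 2000 to 10000 counts 6.27% reached it. The median ratio of the list was 1.39, against 1.26 for all genes.

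Digestive enzymes of the exocrine pancreas showed the widest spread of summed share among the 19 lists. The pancreas list took 0.0127%, 0.0137% and 0.0321% of the counts, so replicate 3 exceeded the others by a ratio of up to 2.49. Of 15 members with a mean of at least 50 counts, 11 were highest in replicate 3. A ratio of 1.5 was reached by 10 of the 15 (66.7%, against 20% of all genes). The trypsinogen gene prss1 was counted 376, 411 and 1131 times, prss59.2, another trypsin gene, 237, 285 and 1223 times, and CEL, a bile salt lipase, 44, 55 and 242 times. The defining marker ela2l, an elastase gene, was counted 24, 19 and 51 times. The hormone gene ins, which encodes the insulin of the endocrine pancreas, did not share this, with 321, 465 and 400 counts.

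Intestinal genes were highest in the same library. Their list took 0.0914%, 0.0928% and 0.124% of the counts. Of 32 members with a mean of at least 50 counts, 26 were highest in replicate 3. A ratio of 1.5 was reached by 18 of the 32 (56.25%, against 20% of all genes). VIL1, the villin of the brush border, took 64.5, 72.7 and 133 CPM, and FABP2, the fatty acid binding protein of enterocytes, 156, 151 and 194 CPM. The gene fabp6, of the distal bile acid pathway, was counted 30, 54 and 85 times. The hepatocyte gene fabp10a was also highest in replicate 3, with 146, 116 and 299 counts. Where the cut was placed in each pool is not given in the sources used here, and its part in these differences was not tested.

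**Figure D3:**
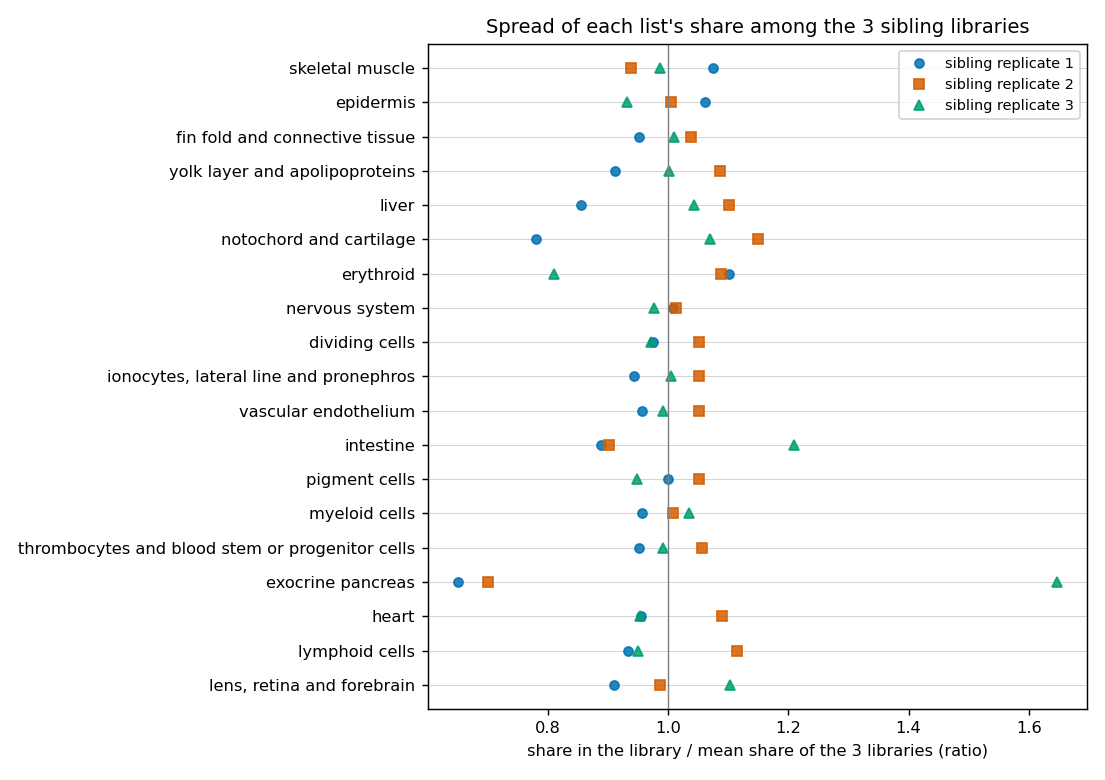
Share of the counts taken by each list in a library, divided by the mean share of the 3 sibling libraries. Exocrine pancreas and intestine lie highest in replicate 3, notochord and cartilage and the liver lowest in replicate 1, and the erythroid list lowest in replicate 3, while the nervous system and dividing cells lie close to 1.

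The nervous system list took 0.503%, 0.505% and 0.487% of the counts, with 77 of 89 identifiers at 1 CPM or more in all 3 libraries. The neuronal tubulin gene tubb2b took 783, 722 and 743 CPM, and snap25a, of the synaptic release machinery, 178, 168 and 178 CPM. GFAP, the filament of radial glia, took 483, 590 and 595 CPM. These genes of spinal cord and ganglia were even, but ELAVL3 (HuC), an RNA-binding protein of young neurons, took 80.2, 66.2 and 48.3 CPM, and mapta, a tau gene, 16.58, 9.49 and 5.90 CPM. Both were highest in replicate 1 and lowest in replicate 3. In the list, 20 of 76 members (26.3%, against 20% of all genes) reached a ratio of 1.5.

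Genes of the head were nearly absent, as far as counts go. In the list for lens, retina and forebrain, 13 of 118 identifiers reached 1 CPM in all 3 libraries and 19 had no count in any. The lens crystallin gene CRYAA was counted 5, 1 and 3 times. The largest member was RPE65 (ENSDARG00000094752), an enzyme of the visual cycle, with 24.3, 27.9 and 17.2 CPM. Cardiac genes were low and were detected in all libraries. The cardiac myosin light chain gene MYL7 took 27.8, 35.5 and 26.0 CPM, the natriuretic peptide gene nppa 16.9, 16.3 and 12.5 CPM, and the heart list 0.0171%, 0.0196% and 0.0171% of the counts.

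Hox genes, which are expressed in nested domains along the body with higher paralog groups toward the tail, were read as a check of the tissue label. Of 48 hox identifiers, 47 reached 1 CPM in all 3 libraries. Paralog groups 9 to 13, with 23 identifiers, took 40.7%, 39.2% and 40.04% of the hox counts. Group 3 took the most, 208 ± 23.8 CPM (SD, n = 3), followed by group 9 with 144 ± 9.45 CPM, and these groups did not overlap. Group 8 with 90.6 ± 10.99 CPM and group 5 with 88.6 ± 8.29 CPM did not differ beyond their spread. Even group 13, the most posterior, took 45.1, 52.5 and 42.3 CPM over 6 identifiers, and group 1 took 39.9, 38.0 and 31.1 CPM over 4. Per identifier the order was reversed, with a mean of 7.78 CPM in group 13 and 9.09 CPM in group 1. Genes HOXB9 (61.8, 59.16 and 51.0 CPM), HOXB3 (56.5, 70.4 and 52.9 CPM), HOXD3 (45.5, 56.8 and 56.3 CPM) and HOXA3 (51.5, 55.6 and 47.6 CPM) led. Both anterior and posterior hox genes were thus counted, with few genes of the list for lens, retina and forebrain detected and some heart signal, so the label "trunk region" and the description as tails cannot be told apart from these values. Hox genes were also even, with 5 of 45 past a ratio of 1.5, against 20% of all genes.

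**Figure D4:**
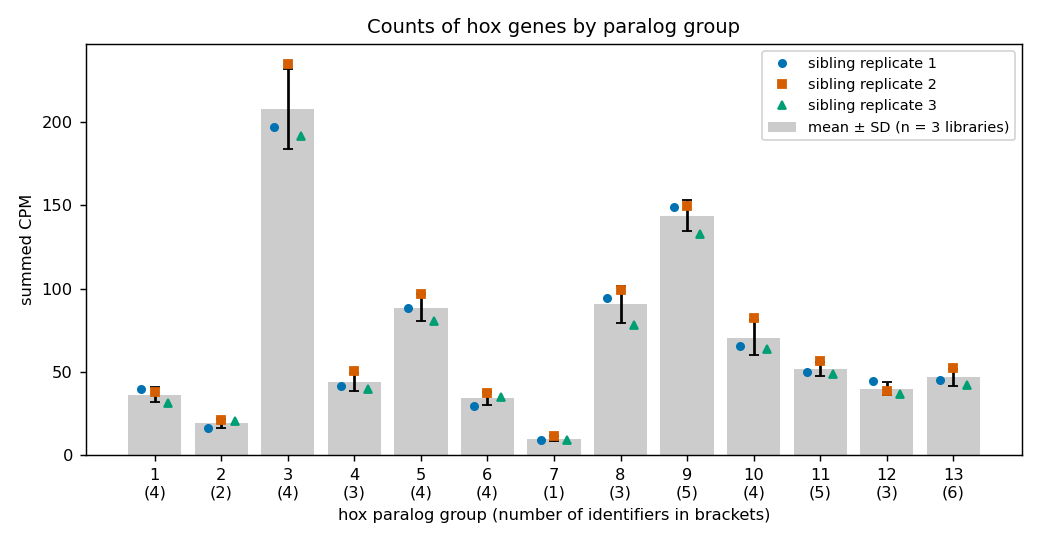
Summed CPM of hox genes by paralog group (number of identifiers in brackets), as mean ± SD of the 3 sibling libraries (bars) with each library as a point. Group 3 reaches 208 CPM and group 9 reaches 144 CPM, and groups 10 to 13 lie between 39.99 and 70.6 CPM.

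Pigment cell genes took 0.0859%, 0.0903% and 0.0815% of the counts. All pigment lineages were counted. The melanophore gene pmela took 81.9, 63.2 and 57.4 CPM, pnp4a of iridophores 71.5, 59.11 and 74.0 CPM, and gch2 of xanthophores 138, 171 and 114 CPM. The list of ionocytes, lateral line and pronephros took 0.171%, 0.191% and 0.182%, with CDH17, the cadherin of the pronephric duct, at 97.6, 113 and 131 CPM, and foxi3b, the regulator of skin ionocytes, at 19.1, 23.4 and 19.02 CPM. An identifier named RHCG (ENSDARG00000007080), an ammonia channel gene, was the most uneven of this list with 259, 741 and 1070 counts, whereas another with the same name (ENSDARG00000003203) had 1826, 1203 and 1051 counts.

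Genes of dividing cells had the smallest share of uneven members among the 19 lists. Of 75 members, 4 passed a ratio of 1.5 (5.33%, against 20% of all genes). The list took 0.274%, 0.295% and 0.273% of the counts. PCNA, the sliding clamp of DNA polymerase, took 204, 208 and 207 CPM, and mki67, a marker of cycling cells, 99.4, 105 and 81.7 CPM. MCM2, of the replicative helicase, took 119, 123 and 143 CPM. The largest ratio, 5.41, was that of RRM2 (ENSDARG00000078069), a subunit of ribonucleotide reductase, with 144, 906 and 571 counts, while the other identifier named RRM2 (ENSDARG00000020711) had 1190, 1471 and 864 counts.

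The libraries differed by more than counting error over the transcriptome as a whole. Between pairs of libraries, the index of dispersion over 14104 genes, which is 1 where only counting error acts, was 22.9 for replicates 1 and 2, 21.2 for 1 and 3, and 13.7 for 2 and 3, so no library is a copy of another. The index was taken without TMM scaling. Abundant genes weigh most in it, so it does not describe a typical gene. Pearson's r of log2 CPM across genes, which are not independent replicates, was 0.978, 0.972 and 0.983 for the same pairs. The median coefficient of variation of a gene was 12.1%, against 6.14% from counting alone, and 83.8% of genes exceeded their own counting value. Some genes would exceed it by counting error alone, and that share was not computed. The common biological coefficient of variation estimated by edgeR was 0.171 over 17367 genes. The median ratio was 1.26, and 715 genes reached 2-fold and 63 reached 4-fold. Depth mattered: of genes with a mean of 50 to 100 counts 45.2% reached a ratio of 1.5, and of those with at least 10000 counts 5.73%. Of the 2824 genes past 1.5-fold, 1244 were highest in replicate 1, 678 in replicate 2 and 902 in replicate 3. Ribosomal protein genes moved together, with 67 of 81 highest in replicate 1 and 69 lowest in replicate 2. Of the 81, 7 reached a ratio of 1.5 (8.64%, against 20% of all genes, not matched for depth).

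The most uneven genes belonged to several tissues. The hatching enzyme genes he1.1 and he1.2, made by the hatching gland that disappears after hatching, were counted 279, 208 and 29 times and 97, 66 and 13 times, low in replicate 3 only. CYP1A1, a monooxygenase gene that is induced through the aryl hydrocarbon receptor, was counted 3052, 16819 and 21190 times, a ratio of 6.96, low in replicate 1 only. The monooxygenase gene cyp2p9 was counted 0, 50 and 184 times, so replicate 3 was at least 61.5-fold higher than the limit of 3 counts in replicate 1. The beta-tubulin gene tubb4bl was counted 126, 873 and 1917 times, and IGFBP5 (ENSDARG00000039264), a binding protein of insulin-like growth factors, 53, 268 and 284 times, both lowest in replicate 1. The motor gene DYNC1H1, which encodes the heavy chain of cytoplasmic dynein, had the opposite pattern with 970, 36 and 46 counts, and ank3b, an ankyrin gene, had 146, 42 and 23. SCG5 (ENSDARG00000077045), of the secretory granule, had 140, 2 and 104 counts, low in replicate 2 only, and its paralog of the same name (ENSDARG00000032126) had 136, 339 and 220.

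**Figure D5:**
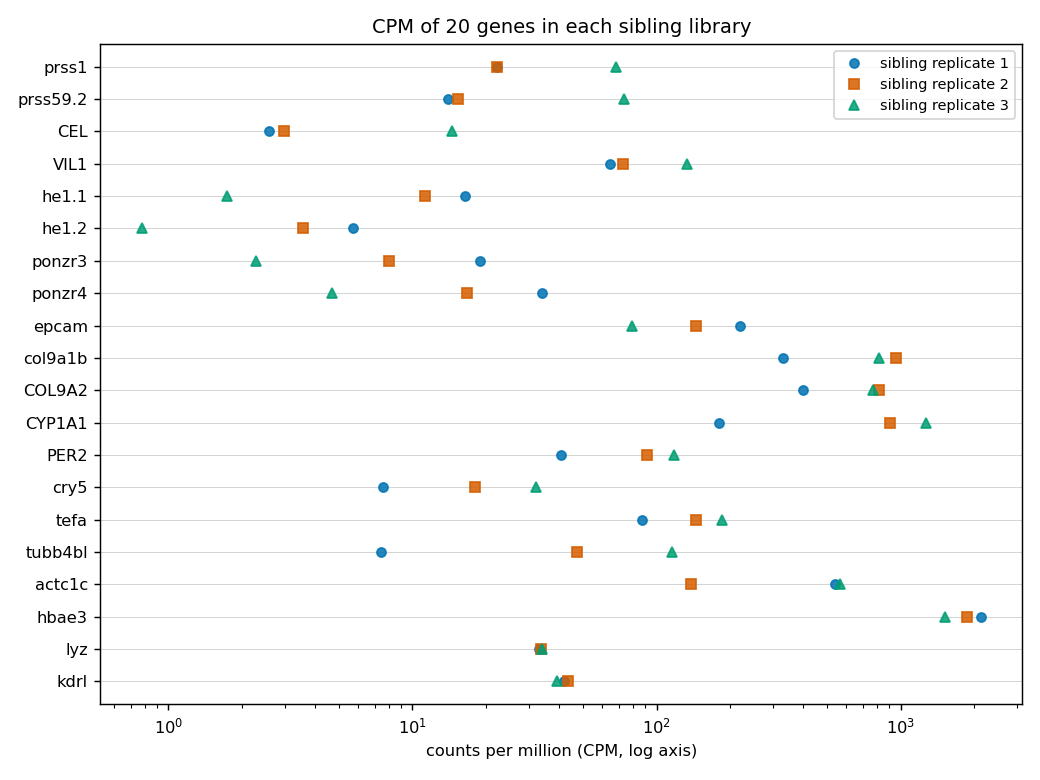
CPM (log axis) of 20 genes in each of the 3 sibling libraries. The pancreas genes prss1, prss59.2 and CEL lie highest in replicate 3 and the hatching enzyme genes he1.1 and he1.2 lowest there, CYP1A1 lies lowest in replicate 1, and lyz and kdrl lie together in all libraries.

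Circadian clock genes, a list made after the values of some had been seen, also differed among the libraries. A ratio of 1.5 was reached by 10 of 25 members with a mean of at least 50 counts, against 20% of all genes, not matched for depth. Because values were seen before the list was made, this difference from all genes cannot be weighed. Of the 25, 13 were lowest in replicate 1, a count that has no background over all genes here. The light-induced clock gene PER2 and cry5, which encodes a light-induced photolyase in zebrafish, took 40.7, 91.4 and 118 CPM and 7.61, 18.1 and 32.0 CPM, and tefa, a light-responsive transcription factor in zebrafish, took 86.8, 145 and 185 CPM. The cryptochrome gene CRY1 (ENSDARG00000045768) took 54.5, 92.9 and 105 CPM. Paralogs of the same name differed from each other. For BMAL1, of the positive arm of the clock, 1 identifier (ENSDARG00000006791) took 21.3, 22.4 and 24.3 CPM and another (ENSDARG00000035732) 14.1, 12.6 and 8.73 CPM, lowest in replicate 3. Of the PER1 identifiers, the leading one (ENSDARG00000012499) took 49.0, 54.7 and 55.9 CPM and another (ENSDARG00000056885) 14.0, 14.0 and 8.31 CPM. The hour at which each pool was collected is not given in the sources used here.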

How the data were processed

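The authors filtered reads with fastp 0.18.0, discarded those of ribosomal RNA, aligned the others to GRCz11 with HISAT2, assembled transcripts with StringTie 1.3.1 and deposited counts per gene, without normalization. The counting tool, strand and treatment of multiple hits are not given in the sources used here. The deposited counts of the 3 sibling libraries were divided by the library total (CPM), and ratios used TMM factors of edgeR 4.0.16 in R 4.3.3 with a minimum mean of 50 counts. DESeq2 1.42.0 size factors were an alternative. The steps were tested on simulated data. Names were found for 23499 of 26375 identifiers, from a table of gene names and, for 192, from the study's tables. Of 1183 list symbols 1106 were matched, and 4 identifiers claimed by 2 lists were left out. Named genes are the 30 with the highest mean CPM, the defining markers and leading members of each list, and those of the largest ratios, and a few others were chosen after their values were seen. The clock, hatching gland, aryl hydrocarbon receptor and niche lists and the subgroups within lists were also chosen then. All members and lists were chosen with earlier results of these data known. The authors' other files, of mettl16-/- libraries, were not used. Some genes that this rule names are not reported here.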

Additional observations from a re-analysis of the deposited data

How the results depend on the processing

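No paired analysis was possible because 1 group is described and no test was run. Without the 10 most abundant genes, the mean shares became 13.3% for skeletal muscle, 3.27% for epidermis, 0.957% for erythroid genes, 0.144% for vascular endothelium and 1.89% for liver. Without their most abundant member, they became 22.0%, 2.64%, 0.567%, 0.104% and 1.16%. With named identifiers as denominator the 19 shares moved by less than 1 SD. Leaving out 1 library can move a mean of 3 by only a part of its SD, and the largest relative move was that of exocrine pancreas, from 0.0195% to 0.0132% without replicate 3. The 2824 genes past a ratio of 1.5 became 10324 without a filter on low counts and 294 at a mean of at least 500 counts. They became 1123 without replicate 1, 1764 without replicate 2 and 1521 without replicate 3, since a ratio over fewer libraries can only be smaller apart from rescaling. Scaling by library size (2917 genes) or DESeq2 size factors (2843) changed little. Requiring 10 CPM left 8309 of the 16153 detected genes. Shares per kilobase of coding length were not run, since no coding lengths were at hand. Counting error limits genes under about 100 counts.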

Other observations

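Among genes with a mean of at least 50 counts, a ratio of 1.5 was reached by 38.5% of identifiers without a name. Of those with a name, 19.1% reached it, and the groups were not matched for depth. Most genes past this ratio were named, 2578 of 2824. Gene length was not compared with the spread here, because the annotation at hand is of another genome build than the counts.

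Genes of the aryl hydrocarbon receptor and its targets, a list chosen after the value of CYP1A1 had been seen, were lowest in replicate 1 for all 6 members with a mean of at least 50 counts, CYP1A1 included. CYP1B1 was counted 41, 84 and 99 times, NQO1 1125, 2153 and 1494 times and cyp1c2 145, 188 and 220 times. The receptor gene ahr2 itself took 54.8, 68.4 and 67.1 CPM, and tiparp was counted 756, 953 and 921 times, a ratio of 1.22. Below that mean, the repressor gene ahrra was counted 8, 28 and 66 times. Its paralog ahrrb was counted 9, 0 and 9 times, lowest in replicate 2. The cause was not tested.

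Among the hatching gland genes, ctslb, a cathepsin gene that the gland expresses in zebrafish, was counted 37, 40 and 5 times, with its lowest value in replicate 3 like he1.1 and he1.2, while klf17 was counted 110, 132 and 118 times. This list, too, was chosen after values were seen.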
